A study of Mus musculus with 8 samples.

Results

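The 9 genes described here, *Gfap*, *Vim*, *S100b*, *Aldh1l1*, *Aldoc*, *Aqp4*, *Acsbg1*, *Fam107a* and *S1pr1*, are used to recognise astrocytes, and were chosen by name out of the 55573 genes counted. All 9 were found by their Ensembl identifiers, and all 9 passed the filter on low counts, which left 18205 genes for testing. RNA was sequenced from fluorescently sorted cells of the cortex of mice that carried a PV-Cre driver, expressed from the gene of the calcium buffer parvalbumin, and a tdTomato reporter. The 4 groups, all on a C57BL/6 background, were Dnmt1 loxP2 mice (KO) at 18 months, Dnmt1 wild-type mice (WT) at 18 months, KO mice at 6 months and WT mice at 6 months. WT mice carried PV-Cre and tdTomato as well. In the floxed line, B6;129Sv-Dnmt1tm4Jae/J, loxP sites flank exons 4 and 5 of *Dnmt1*, which encodes a DNA methyltransferase, so the deletion depends on activity of the driver. Each group had 2 libraries, described as technical replicates, and the cells were pooled from 6 KO and 6 WT mice. The p-values given here therefore measure the spread between libraries and not between animals.

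Astrocytes are glial cells that clear glutamate and potassium from the extracellular space, supply neurons with metabolites and contact vessels with processes called endfeet. *Gfap* and *Vim* encode intermediate filament proteins of their cytoskeleton, *S100b* a calcium-binding protein, *Aldh1l1*, *Aldoc* and *Acsbg1* enzymes of folate, sugar and fatty acid metabolism, and *Aqp4* the water channel of the endfeet. *Fam107a* encodes an actin-associated protein that responds to stress hormones, and *S1pr1* a receptor for the lipid sphingosine-1-phosphate. Cortical grey matter astrocytes hold little *Gfap* at rest and gain it, with *Vim*, when they become reactive. *S100b* is also made by oligodendrocytes, and *Vim* by pericytes, smooth muscle, endothelium and fibroblasts.

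Library totals ran from 6008175 to 13551218 counts, and each member was covered by 100 to 8725 reads in every library. Levels are given as CPM, read counts scaled to the total of the tested genes and TMM, a correction for differences in library make-up. WT libraries at 6 months stood apart. Over the 18205 tested genes, their correlation of log2 CPM with any library outside that group was 0.9 to 0.951. Between libraries of different groups among the remaining groups it was 0.958 to 0.977. *Dnmt1* had 74.3 and 76.6 CPM in KO and 80.8 and 81.1 CPM in WT libraries at 18 months, against 77.2 and 75.2 CPM in KO and 97.9 and 104 CPM in WT libraries at 6 months. It was lower in KO at 6 months (log2 fold change -0.40, edgeR adjusted p = 0.0001), and at 18 months the difference did not pass the threshold (-0.10, adjusted p = 0.281); counts cover the whole gene and not the deleted exons alone. *Pvalb*, the gene that defines the labelled interneurons, had 6 reads over the 8 libraries. The 16 oligodendrocyte markers, all detected, summed to between 15056 and 44101 CPM per library, and the 25 astrocyte markers that are not members to between 10954 and 22236 CPM. In such bulk samples, fewer cells of a type and less RNA per cell cannot be told apart.

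Of the 9 genes, 7 (*Gfap*, *Fam107a*, *Aldh1l1*, *Aldoc*, *Acsbg1*, *Aqp4* and *S1pr1*) were 2-fold to 2.34-fold higher in KO than in WT at 18 months and 1.64-fold to 2.17-fold lower in KO at 6 months. *S100b* went the opposite way at each age. *Vim* was higher in KO at 18 months, and did not pass the threshold at 6 months. Relative to the sum of other astrocyte markers the differences of the 7 genes were smaller, and *Vim* changed sign (log2 -0.17 at 18 months and 0.42 at 6 months). Relative to the geometric mean of those markers, the 7 genes lay between 0.02 and 0.24 at 18 months, where 1 passed the threshold. At 6 months 5 of the 7 were still lower in KO on that scale. Both scales are set out after the values by library. The levels of all 9 genes in each library are drawn in the panel of bar charts.

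**Figure D1:**
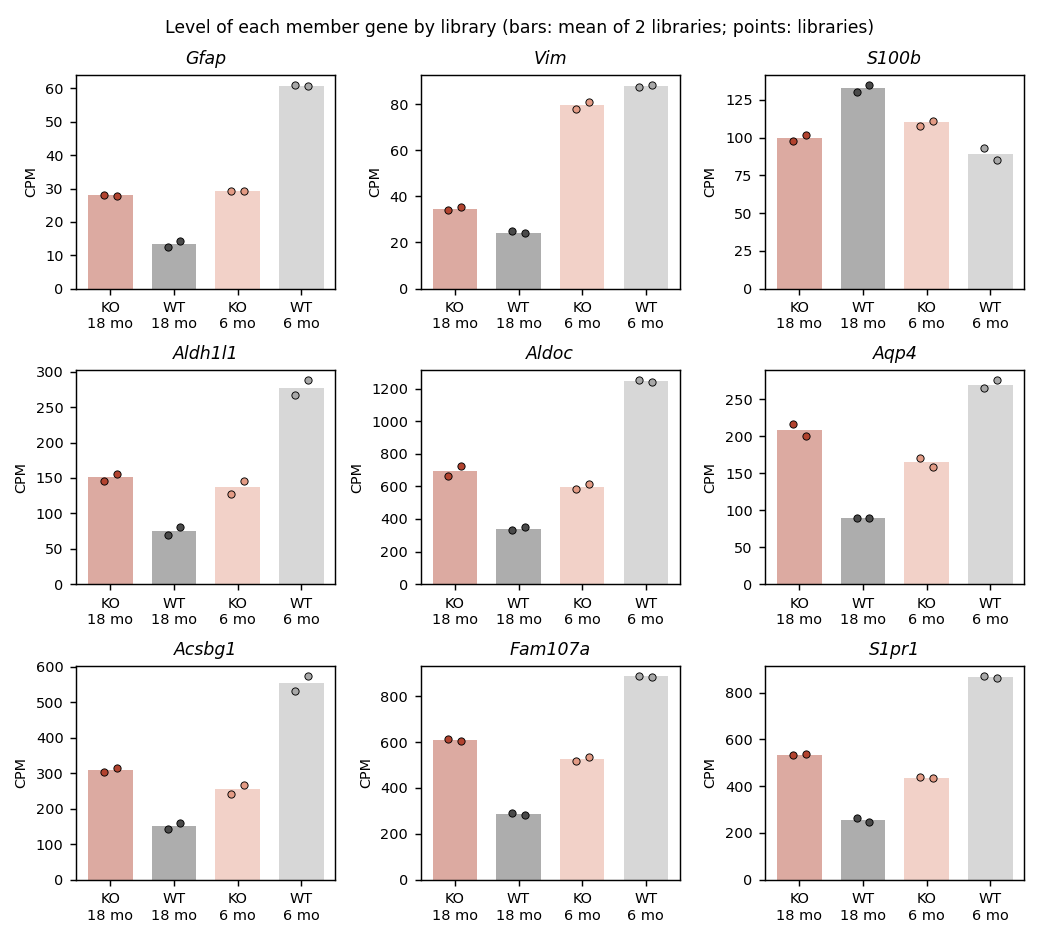
Level of each member in CPM (scaled read counts) on the vertical axis, for KO and WT at 18 months and KO and WT at 6 months on the horizontal axis; bars are means of the 2 libraries and points are the libraries. In 8 panels, all but *S100b*, the KO bars lie between a low WT bar at 18 months and a high WT bar at 6 months, as for *Aldoc* with 341 and 1247 CPM in WT; *S100b* has its highest bar in WT at 18 months (133 CPM), and *Vim* has its high bars at 6 months in both genotypes.

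*Gfap*, the glial filament protein (chromosome 11, 102887336 to 102900912, minus strand, mm10), had 28.2 and 27.8 CPM in KO and 12.5 and 14.2 CPM in WT libraries at 18 months, against 29.4 and 29.3 CPM in KO and 61.1 and 60.6 CPM in WT libraries at 6 months. No library of one genotype overlapped the other genotype at either age, and the WT libraries held both the highest and the lowest values. The log2 fold change of KO over WT was 1.05 ± 0.11 (SE) at 18 months (edgeR adjusted p = 1.11e-07) and -1.05 ± 0.10 at 6 months (adjusted p = 1.07e-08). The log2 fold change with age was -0.07 ± 0.10 in KO (adjusted p = 0.67), which did not pass the threshold. In WT *Gfap* fell 4.49-fold with age (-2.17 ± 0.11, adjusted p = 3.04e-14). Per kilobase of exon *Gfap* had the lowest mean level of the 9 members, 7.8 CPM per kb over the 8 libraries, against 221 CPM per kb for *Aldoc*.

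The 250 bases before the start of *Gfap* are shown here with those of *Acsbg1* and *S100b*, because *Gfap* and *Acsbg1* moved together while *S100b* moved against them; these are the 3 members whose window held no exon. They come from the RefSeq promoter table of GRCm38.p6, which listed 7 of the 9 members. The start is that of the RefSeq transcript, which for *Gfap* lies inside the GENCODE span given above and is not its outer end. Capitals mark matches, on either strand, to TTCNNNGAA (the STAT motif) or TTGGC (the short motif of NFI factors). The windows are chr11:102897201-102897450 (minus strand) for *Gfap*, chr9:54661886-54662135 (minus strand) for *Acsbg1* and chr10:76253586-76253835 (plus strand) for *S100b*.
Gfap: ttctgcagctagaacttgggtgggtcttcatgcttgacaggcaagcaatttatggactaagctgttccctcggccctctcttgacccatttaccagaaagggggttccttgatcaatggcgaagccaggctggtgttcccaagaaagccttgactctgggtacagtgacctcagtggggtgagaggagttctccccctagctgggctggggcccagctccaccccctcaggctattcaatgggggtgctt
Acsbg1: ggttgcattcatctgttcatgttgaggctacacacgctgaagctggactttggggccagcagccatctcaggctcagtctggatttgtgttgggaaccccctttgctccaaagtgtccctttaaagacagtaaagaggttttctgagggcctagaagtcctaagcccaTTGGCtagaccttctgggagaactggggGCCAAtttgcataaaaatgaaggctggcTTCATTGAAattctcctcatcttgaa
S100b: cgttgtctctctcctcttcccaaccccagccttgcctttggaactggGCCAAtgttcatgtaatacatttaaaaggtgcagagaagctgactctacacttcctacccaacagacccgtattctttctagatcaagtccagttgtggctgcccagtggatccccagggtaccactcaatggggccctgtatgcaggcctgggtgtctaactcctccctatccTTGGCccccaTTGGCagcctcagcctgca
The *Acsbg1* window held 1 STAT match, 26 bases before the start, and 2 NFI motifs. The *S100b* window held 3 NFI motifs and no STAT match. None of the searched letters, which also included ACAAT (SOX) and TATAAA (the TATA box), was found in the *Gfap* window. Among 32851 promoter windows of the same length, 7.02% held a STAT match, 41.5% an NFI motif, 27.7% ACAAT and 12.4% TATAAA. The windows held 2 CG dinucleotides in *Gfap*, 1 in *Acsbg1* and 2 in *S100b*, against a median of 6 over all windows. A match is a run of letters and not a measured site.

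*Vim*, the filament protein vimentin (chromosome 2, 13573927 to 13582826, plus strand), had 34.1 and 35.3 CPM in KO and 24.8 and 23.9 CPM in WT libraries at 18 months, against 77.9 and 80.9 CPM in KO and 87.4 and 88.4 CPM in WT libraries at 6 months. Its order followed age: all 4 libraries at 18 months lay below all 4 at 6 months. The log2 fold change of KO over WT was 0.51 ± 0.09 at 18 months (adjusted p = 0.000107) and -0.15 ± 0.08 at 6 months (adjusted p = 0.151). *Vim* fell with age in KO by 1.19 (adjusted p = 6.38e-11) and in WT by 1.86 (adjusted p = 7.76e-15) on the log2 scale. Under TMM scaling no other member fell with age in both genotypes; relative to other astrocyte markers *Gfap* did as well.

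*Fam107a*, the actin-associated member (chromosome 14, 8296274 to 8318023, minus strand), had 615 and 606 CPM in KO and 292 and 284 CPM in WT libraries at 18 months, against 519 and 536 CPM in KO and 889 and 884 CPM in WT libraries at 6 months. The groups did not overlap, and both KO groups lay between the WT groups. Its log2 fold change of KO over WT was 1.09 ± 0.05 at 18 months (adjusted p = 4.31e-13) and -0.75 ± 0.05 at 6 months (adjusted p = 2.72e-11). With age it changed by 0.21 ± 0.05 in KO (adjusted p = 0.00289) and by -1.62 ± 0.05 in WT (adjusted p = 1.28e-17).

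*S100b*, the calcium-binding protein (chromosome 10, 76253853 to 76261159, plus strand), had 97.6 and 102 CPM in KO and 130 and 135 CPM in WT libraries at 18 months, against 108 and 111 CPM in KO and 93.3 and 85.3 CPM in WT libraries at 6 months. Its extremes were the mirror image of those of *Gfap*: WT at 18 months was highest and WT at 6 months lowest. The spread was small, with the highest group 1.49-fold above the lowest, against 4.54-fold for *Gfap*. *S100b* was lower in KO at 18 months (log2 fold change -0.41 ± 0.07, adjusted p = 2.59e-05) and higher in KO at 6 months (0.30 ± 0.07, adjusted p = 0.00197). Its log2 fold change with age was -0.14 ± 0.07 in KO (adjusted p = 0.13), and 0.57 ± 0.07 in WT (adjusted p = 1.92e-07).

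Among the metabolic enzymes, *Aldoc*, which encodes the brain aldolase of glycolysis (chromosome 11, 78322968 to 78327781, plus strand), had 666 and 722 CPM in KO and 332 and 350 CPM in WT libraries at 18 months, against 585 and 614 CPM in KO and 1251 and 1243 CPM in WT libraries at 6 months. It was the most abundant member per kilobase of exon in every group, with 213 CPM per kb in KO and 104 CPM per kb in WT at 18 months, and 184 CPM per kb in KO and 382 CPM per kb in WT at 6 months. The log2 fold change of KO over WT was 1.02 ± 0.06 at 18 months (adjusted p = 1.6e-12) and -1.06 ± 0.06 at 6 months (adjusted p = 3.35e-13). With age *Aldoc* rose by 0.21 on the log2 scale in KO (adjusted p = 0.00431). In WT it fell by 1.87 (adjusted p = 4.37e-18).

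*Acsbg1*, an acyl-CoA synthetase that activates long-chain fatty acids (chromosome 9, 54604877 to 54661870, minus strand), had 302 and 314 CPM in KO and 144 and 160 CPM in WT libraries at 18 months, against 241 and 267 CPM in KO and 532 and 574 CPM in WT libraries at 6 months. Both KO groups again lay between the WT groups without overlap. KO over WT gave 1.01 ± 0.07 at 18 months (adjusted p = 2.76e-11) and -1.12 ± 0.07 at 6 months (adjusted p = 1.71e-12) on the log2 scale. With age *Acsbg1* changed by 0.27 in KO (adjusted p = 0.00206) and by -1.86 in WT (adjusted p = 5.69e-17).

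*Aldh1l1*, the folate enzyme 10-formyltetrahydrofolate dehydrogenase (chromosome 6, 90486427 to 90600203, plus strand), had 146 and 156 CPM in KO and 69.6 and 80.5 CPM in WT libraries at 18 months, against 128 and 146 CPM in KO and 267 and 288 CPM in WT libraries at 6 months. The KO groups met at 146 CPM, and the WT groups lay to either side. KO over WT gave 1.00 ± 0.08 at 18 months (adjusted p = 4.45e-10) and -1.02 ± 0.07 at 6 months (adjusted p = 6.45e-11). Its log2 fold change with age was 0.14 in KO (adjusted p = 0.145) and -1.88 in WT (adjusted p = 5.02e-16). The gene overlaps Gm45901, with 6 reads over all libraries, and the antisense gene Gm15756, with 84 reads (the strand setting of the counting was not given in the sources used here).

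Both remaining members act at the cell surface. *Aqp4*, the water channel (chromosome 18, 15389496 to 15410982, minus strand), had 217 and 201 CPM in KO and 89 and 89.6 CPM in WT libraries at 18 months, against 171 and 159 CPM in KO and 265 and 276 CPM in WT libraries at 6 months. It had the highest fold change of the members at 18 months (log2 1.22 ± 0.06, adjusted p = 9.27e-13). At 6 months its difference of -0.72 ± 0.06 (adjusted p = 1.93e-09) was close to that of *Fam107a* and the smaller of the pair. With age it changed by 0.34 in KO (adjusted p = 0.000149) and by -1.60 in WT (adjusted p = 4.96e-16).

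*S1pr1*, the sphingosine-1-phosphate receptor (chromosome 3, 115710433 to 115715072, minus strand), had 533 and 538 CPM in KO and 262 and 246 CPM in WT libraries at 18 months, against 438 and 436 CPM in KO and 872 and 861 CPM in WT libraries at 6 months. Its groups did not overlap. KO over WT gave 1.08 ± 0.05 at 18 months (adjusted p = 5.75e-13) and -0.99 ± 0.05 at 6 months (adjusted p = 5.14e-13). With age *S1pr1* changed by 0.29 in KO (adjusted p = 0.000142) and by -1.77 in WT (adjusted p = 5.26e-18).

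Counted over the members, 8 of 9 were higher and 1 was lower in KO at 18 months, where 14.7% of all tested genes were called higher and 17.4% lower. At 6 months 1 was higher, 7 were lower in KO and 1 was not called, with 19.2% of all tested genes called higher and 19.6% lower. From 6 to 18 months 5 members rose, 1 fell and 3 were not called in KO, against 13.8% of all tested genes higher and 17.9% lower. That count of 5 depended on the setting: it was 3 without KO 6 months replicate 1, 6 with the replicate number as a block and 0 when scaled to other astrocyte markers. In WT 1 rose and 8 fell with age, against 28.2% higher and 30.8% lower. The median log2 fold change of the members was 1.02 and -0.99 for KO over WT at 18 and 6 months, and 0.21 in KO and -1.86 in WT for age, while over all tested genes these medians lay between -0.04 and 0.00. A fit of the 4 libraries at 18 months alone, without those at 6 months, gave the same 8 higher and 1 lower. The comparisons share libraries, since WT at 6 months enters both the genotype comparison at 6 months and the age comparison in WT. The plot of fold changes sets the 4 comparisons beside each other.

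**Figure D2:**
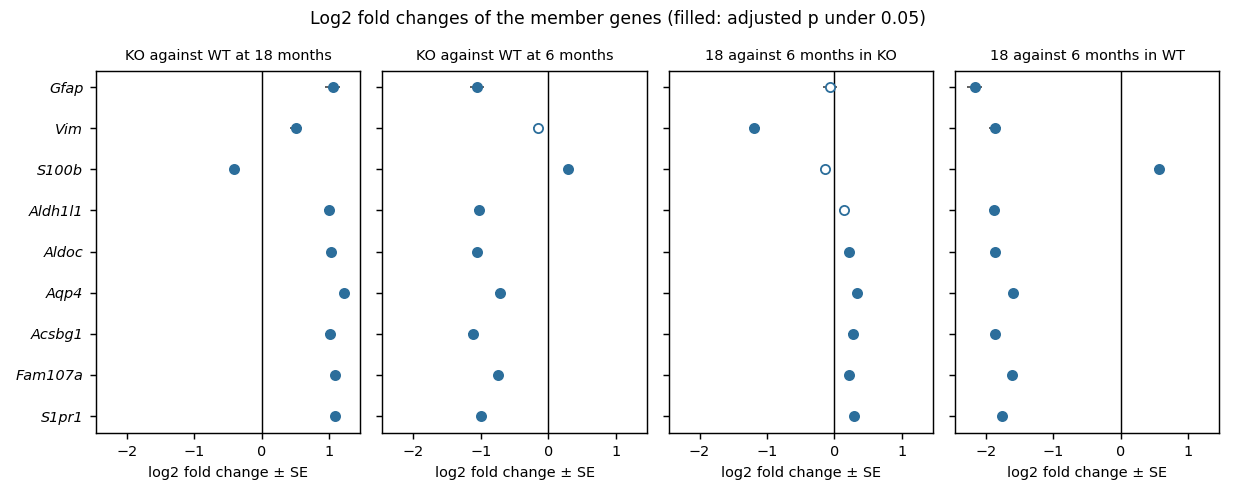
Log2 fold change with its standard error (horizontal axis) of each member (vertical axis) in 4 comparisons, KO against WT at 18 and at 6 months and 18 against 6 months in KO and in WT; filled points passed an adjusted p of 0.05. The 7 genes that moved together lie near 1 and -1 in the genotype panels, from -2.17 to -1.60 in WT with age, and from -0.07 to 0.34 in KO with age.

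The genotype difference itself differed between the ages for all 9 members. The interaction, the log2 difference of KO and WT at 18 months less the one at 6 months, lay between 1.83 (*Fam107a*) and 2.14 (*Acsbg1*) in the 7 genes, with edgeR adjusted p of at most 5.21e-11. For *Vim* it was 0.66 ± 0.12 (adjusted p = 9.75e-05) and for *S100b* -0.71 ± 0.10 (adjusted p = 2.09e-06). Of all tested genes, 18.4% had a positive and 20.7% a negative interaction past the threshold.

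The order of the 4 groups was shared by 6 members. *Aldh1l1*, *Aldoc*, *Aqp4*, *Acsbg1*, *Fam107a* and *S1pr1* ran, from high to low, WT at 6 months, KO at 18 months, KO at 6 months and WT at 18 months. Neighbours in that order differed past the threshold in each case other than the pair of KO groups for *Aldh1l1*. *Gfap* had both KO groups at the same height, with means of 28 ± 0.33 CPM at 18 months and 29.3 ± 0.13 CPM at 6 months (SD, n = 2 libraries each). *Vim* ran WT at 6 months, KO at 6 months, KO at 18 months and WT at 18 months, and its pair at 6 months did not differ past the threshold. *S100b* ran WT at 18 months, KO at 6 months, KO at 18 months and WT at 6 months; neither of the lower steps passed the threshold (adjusted p = 0.13 and 0.0573). Across genotype and age together, 8 members were lower and none higher in KO at 18 months than in WT at 6 months, where 28.9% of all tested genes were called lower and 26.5% higher. In KO at 6 months 8 members were higher and 1 lower than in WT at 18 months, where 17.9% of all tested genes were called higher and 15.7% lower.

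Across the 8 libraries, log2 CPM of the 7 genes correlated with each other at 0.95 to 1.00 (Pearson's r). *S100b* correlated with them at -0.94 to -0.99, and *Vim* at 0.71 (*Aqp4*) to 0.85 (*Gfap*). The libraries come from 4 groups and share their pools in pairs, so these are descriptions of 4 group levels. Ranked by likeness among 7357 genes, the closest to *Gfap* were *Pfkm* (r = 0.999), *Mgll* (0.998) and *Slc27a1* (0.998), which encode a phosphofructokinase, a monoacylglycerol lipase and a fatty acid transporter. For *Vim* they were *Bcam* (0.997), *Atp2b4* (0.995) and the smooth muscle myosin light chain gene *Myl9* (0.995). *S100b* was most like its relative *S100a16* (0.992), followed by *Taldo1* (0.990) and *Prkcq* (0.990).

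The other members had their own nearest genes. *Aldoc* was most like *Lfng* (0.999), which encodes a glycosyltransferase that modifies Notch, *Ndrg2* (0.998) and *Arrb1* (0.998). *Aqp4* was most like *Slc7a2* (0.999) and *Slc7a11* (0.997), which encode amino acid transporters, and *Tmem164* (0.997). *Fam107a* was most like the bicarbonate transporter gene *Slc4a4* (0.999), *Dzip1l* (0.999) and *Amot* (0.998). *Acsbg1* was most like *Alpl* (0.998), *Psd2* (0.997) and *Oaf* (0.997), *Aldh1l1* like *Lrig1* (0.997), *Arrb1* (0.997) and *Oaf* (0.996), and *S1pr1* like *Fndc3b*, *Klhdc7a* and *Robo2* (0.998 each).

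Most of the 25 other astrocyte markers moved in the direction of the 7 genes. At 18 months 23 were higher in KO and none lower (median log2 fold change 1.06), and at 6 months 1 was higher and 23 lower (median -0.76). With age, 17 rose and 1 fell in KO (median 0.28), and 2 rose and 23 fell in WT (median -1.61). The shares of all tested genes called, given above with the counts of members, are the background for this and the following lists. The glutamate transporter genes *Slc1a2* (log2 fold change of KO over WT 1.12 at 18 months, adjusted p = 2.43e-14) and *Slc1a3* (-0.96 at 6 months, adjusted p = 3.03e-13) and the growth factor receptor gene *Fgfr3* (1.27 at 18 and -1.05 at 6 months) were among those with the smallest p. *Glul*, the glutamine synthetase gene, and *Hepacam*, an adhesion molecule gene, rose with age in WT (0.44 and 0.25), as *S100b* did. *Glul* was picked after its values were seen.

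Markers of other cells moved as well. All 16 oligodendrocyte markers were lower in KO at 18 months, higher in KO at 6 months and higher at 18 than at 6 months in WT. In KO with age 2 of them rose and 8 fell. Their sum was 29844 to 30427 CPM in KO and 43928 to 44101 CPM in WT libraries at 18 months, against 32681 to 33737 CPM in KO and 15056 to 15097 CPM in WT libraries at 6 months. The 4 groups stood in the same order in this sum as in *S100b*. The myelin genes *Mobp* (log2 fold change of KO over WT 1.73) and *Mbp* (1.23) were among those with the smallest p at 6 months. The part of these cells in the levels of *S100b* and of the other members was not tested.

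Markers of oligodendrocyte precursors and GABA neurons moved with the 7 genes in some comparisons, and microglial markers did so in none. Of all tested genes 14.7% were called higher and 17.4% lower in KO at 18 months, and 19.2% and 19.6% at 6 months. With age 13.8% rose and 17.9% fell in KO, and 28.2% rose and 30.8% fell in WT. The GABA neuron counts at 18 months were near these shares. Of 12 oligodendrocyte precursor markers, all detected, 11 were lower in KO at 18 months and none higher, and 1 was higher and 11 lower at 6 months; with age 8 fell in KO, and 1 rose and 11 fell in WT. Their sum was 1248 to 1309 CPM in KO and 2067 to 2134 CPM in WT libraries at 18 months, against 1779 to 1854 CPM in KO and 3416 to 3428 CPM in WT libraries at 6 months. Of 9 GABA neuron markers, 2 were higher and 2 lower in KO at 18 months, none higher and 8 lower at 6 months, and with age 1 rose and 6 fell in KO and 9 fell in WT. They summed to 839 to 864 CPM in KO and 596 to 644 CPM in WT libraries at 18 months, against 753 to 778 CPM in KO and 1248 to 1288 CPM in WT libraries at 6 months, an order of groups that *Aldoc* and *S1pr1* share. Of 15 microglial markers 14 were lower in KO at 18 months, and with age 14 fell in KO. The 3 microglial markers higher in KO at 6 months and the 4 that rose in WT were near the shares above. The microglial sum was 85.8 to 87.6 CPM in KO and 199 to 210 CPM in WT libraries at 18 months. At 6 months it was 194 to 199 CPM in KO and 146 to 155 CPM in WT libraries. The part of these cells in the members' levels was not tested.

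Markers of mural cells, the pericytes and smooth muscle of vessels, fell with age beside *Vim*. With age 17.9% of all tested genes fell in KO and 30.8% in WT. In KO 14.7% were called higher and 17.4% lower at 18 months, and 19.2% and 19.6% at 6 months. Of 12 pericyte and smooth muscle markers, all detected, 8 fell with age in KO and 12 in WT, and 8 were higher and 1 lower in KO at 18 months, against 6 higher and 2 lower at 6 months. Their sum was 2036 to 2064 CPM in KO and 1216 to 1253 CPM in WT libraries at 18 months. At 6 months it was 2873 to 2970 CPM in KO and 2760 to 2803 CPM in WT libraries. The sum includes *Cspg4*, picked out after its values were seen, which also marks oligodendrocyte precursors. *Cspg4* was the gene lower in KO at 18 months (-0.46) and 1 of the 2 lower at 6 months (-0.85). It averaged 181 CPM in KO and 249 CPM in WT at 18 months, against 338 CPM in KO and 609 CPM in WT at 6 months. The smooth muscle genes *Acta2* (-1.90) and *Myh11* (-1.81) were among those with the smallest p for age in WT. Of 7 tested fibroblast markers, 3 were higher and 1 lower in KO at 18 months, none higher and 5 lower at 6 months, and with age 4 fell in KO and 7 in WT. *Pdgfra*, which also marks oligodendrocyte precursors, made up most of their sum, and was the gene lower in KO at 18 months. Without it the markers summed to 41.5 to 45 CPM in KO and 25.8 to 28.5 CPM in WT libraries at 18 months, against 69.2 to 73.5 CPM in KO and 97.9 to 108 CPM in WT libraries at 6 months. Of 12 endothelial markers, all detected, 2 fell with age in KO and 1 rose and 10 fell in WT (median log2 -0.14 in KO and -0.71 in WT); 2 were higher and 1 lower in KO at 18 months, against 2 higher and 4 lower at 6 months. Their sum was 279 to 280 CPM in KO and 257 to 265 CPM in WT libraries at 18 months, against 286 to 293 CPM in KO and 325 CPM in both WT libraries at 6 months, with *Slc2a1* at 138 to 172 CPM of it per library, a gene picked out after its values were seen. The part of these cells in the level of *Vim* was not tested. The plot of patterns sets *S100b*, *Vim* and *Gfap* beside the sums.

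**Figure D3:**
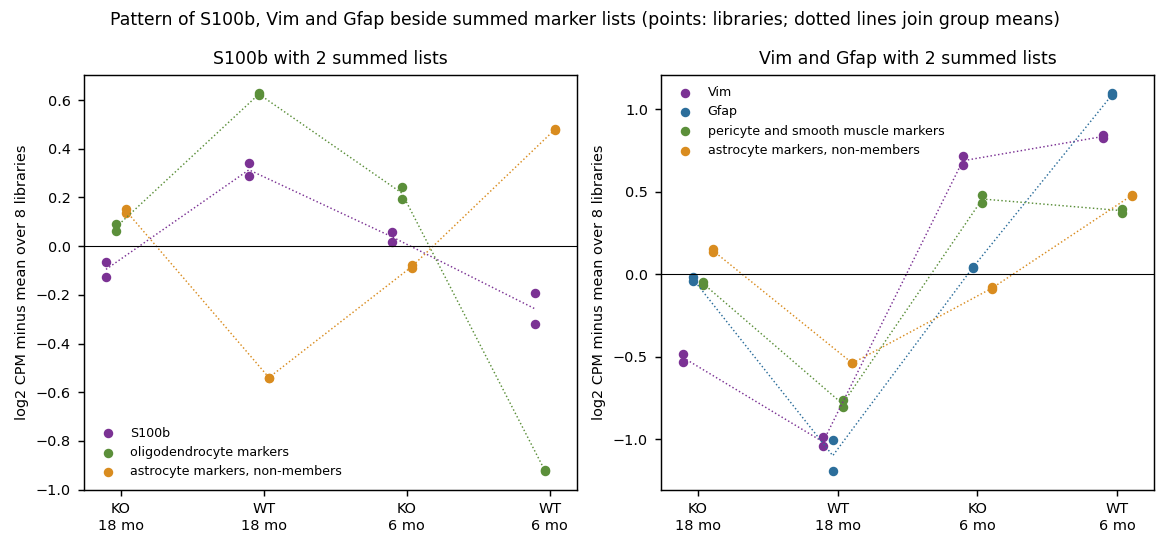
Log2 CPM of 3 members and of summed marker lists, each minus its mean over the 8 libraries (vertical axis), in the 4 groups (horizontal axis); points are libraries and dotted lines join group means. *S100b* and the oligodendrocyte sum share the order of the groups, with a wider range in the sum (15056 to 44101 CPM), and *Vim* and the pericyte and smooth muscle sum are both lower at 18 months than at 6 months in each genotype.

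The members were next set against the other astrocyte markers, by scaling each library to the summed counts of those 25 genes, so that a fold change is relative to them. The sum leaned on a few abundant genes, with *Slc1a2* at 24.1% and *Glul* at 22.4% of it. Under TMM, KO over WT at 18 and 6 months was 1.12 and -0.53 for *Slc1a2*. For *Glul* it was -0.11 and 0.09, neither past the threshold. The scaling moved the median of all tested genes to -0.68 at 18 months and 0.56 at 6 months for KO over WT, and to 0.98 for age in WT. On this scale the 7 genes stayed 0.31 to 0.54 higher in KO at 18 months and 0.15 to 0.56 lower in KO at 6 months (log2), and each of these differences passed the threshold. Of all tested genes 2.53% were called higher in KO at 18 months on this scale, and 5.86% lower in KO at 6 months. Under TMM these shares were 14.7% and 19.6%, so that the scaling itself lowered them. For age in WT the 7 genes fell by 0.58 to 1.15, where 9.49% of all tested genes were called lower and 65.9% higher. *S100b* was lower in KO by 1.10 at 18 months, where 64.6% of all tested genes were called lower, and higher by 0.86 at 6 months, where 55.9% were called higher. *Vim* turned round: it was 0.42 higher in KO at 6 months (adjusted p = 8.7e-05), and its value at 18 months was -0.17 (adjusted p = 0.108).

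A second scale used the geometric mean of the same markers, so that each gene had the same weight, and was chosen after the data were seen. It moved the median of all tested genes to -0.98 at 18 months and 0.74 at 6 months for KO over WT, and to 1.44 for age in WT. The 7 genes then lay between 0.02 and 0.24 at 18 months, where *Aqp4* alone passed the threshold (0.24 ± 0.07, adjusted p = 0.00285; 0.67% of all tested genes were called higher). At 6 months 5 of the 7 were lower in KO, with *Acsbg1* at -0.37, and *Aqp4* (0.03) and *Fam107a* (0.00) did not pass the threshold, where 3.65% of all tested genes were called lower. For age in WT 6 of the 7 fell, led by *Gfap* with -0.68, and *Aqp4* had -0.11 (adjusted p = 0.145), where 4.39% of all tested genes were called lower. *S100b* stood at -1.39, 1.04 and 2.06 in these 3 comparisons, and *Vim* at -0.47, 0.60 and -0.37. Genes called in the direction of *S100b* made up 75.9%, 65.6% and 76.7% of all those tested.

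For age in KO, no member rose and 3 fell under either scale: *Vim* by 1.42 and 1.44, *S100b* by 0.36 and 0.38, and *Gfap* by 0.30 and 0.31 (sum, then geometric mean). Of all tested genes 4.19% rose and 35.4% fell with the sum, and 3.78% rose and 36.3% fell with the geometric mean. The interaction was positive for the 7 genes and negative for *S100b* and *Vim* with the sum, where 2.63% of all tested genes were positive and 69.3% negative. With the geometric mean 6 were positive, and *Fam107a* (0.10) did not pass the threshold, where 0.785% of all tested genes were positive and 80.6% negative.

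**Figure D4:**
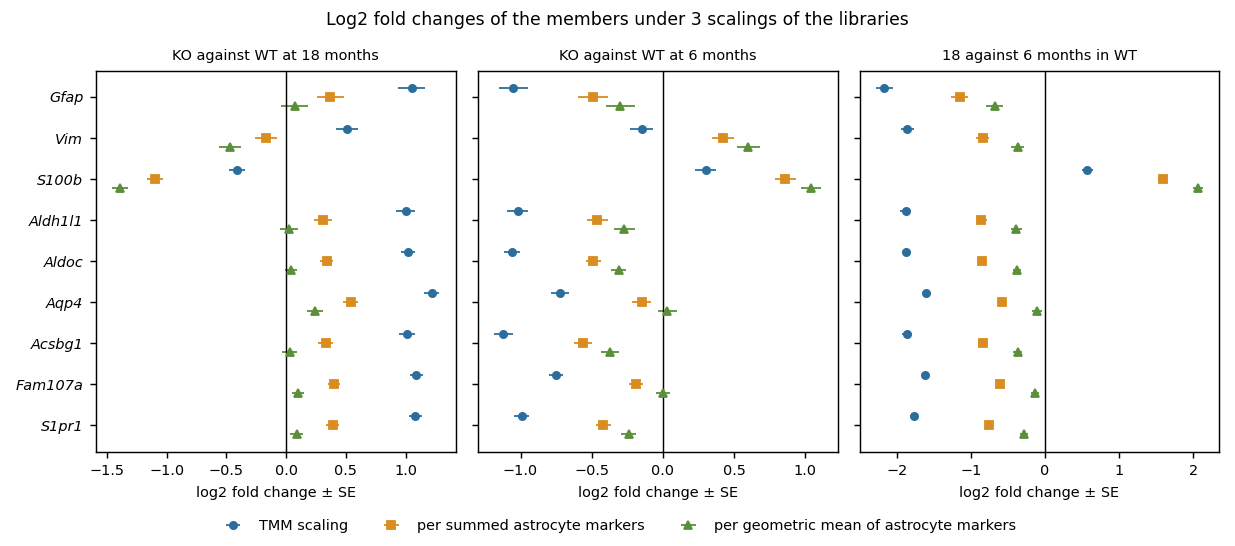
Log2 fold change with its standard error (horizontal axis) of each member (vertical axis) under 3 scalings, for KO against WT at 18 and at 6 months and for 18 against 6 months in WT; circles are TMM, squares the summed astrocyte markers and triangles their geometric mean. The 7 genes move towards 0 when scaled to astrocyte markers (from 0.02 to 0.24 at 18 months with the geometric mean), *S100b* moves away from 0, and *Vim* changes sign between KO and WT.

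Genes of reactive astrocytes gave a mixed picture beside *Gfap* and *Vim*. Of 36 such genes 31 were tested. In KO at 18 months 9 were higher and 3 lower (median log2 0.37), where 14.7% of all tested genes were called higher and 17.4% lower. At 6 months 4 were higher and 6 lower (median -0.32), against 19.2% and 19.6%, so that neither count stood above the background. With age 2 rose and 10 fell in KO (median -0.19), against 13.8% and 17.9% of all tested genes. In WT 2 rose and 17 fell (median -0.71), against 28.2% and 30.8%. *Serpina3n*, a protease inhibitor gene of reactive astrocytes, averaged 11.6 CPM in KO and 28.9 CPM in WT at 18 months, against 6.31 CPM in KO and 9 CPM in WT at 6 months. It was lower in KO at 18 months (log2 -1.31, edgeR adjusted p = 2.75e-08) and rose with age in WT (1.68, adjusted p = 1.41e-09), against the direction of *Gfap*. At 6 months *Serpina3n* was lower in KO (-0.51, edgeR adjusted p = 0.0454), in the direction of *Gfap*. *Amigo2* averaged 12.2 CPM in KO and 5.24 CPM in WT at 18 months, against 12.3 CPM in KO and 23.1 CPM in WT at 6 months, a pattern like that of *Gfap*. Of 6 genes of *Gfap*-rich and pial astrocytes, 5 were tested: *Id3* (0.53), *Thbs4* (1.23) and *Agt* (1.42) were higher in KO at 18 months, while *Id1* (0.13) and *Cd44* (-0.69) did not pass the threshold.

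Of 11 tested intermediate filament and linker genes other than *Gfap* and *Vim*, 9 fell with age in KO and 9 in WT. Of all tested genes 17.9% fell in KO and 30.8% in WT. The lamin gene *Lmnb1* fell in KO only and *Lmnb2* in WT only. Those that fell in both included the neuronal filament genes *Ina*, *Nefl*, *Nefm* and *Nefh* and the mural cell gene *Des*. All of these genes were picked out after their values were seen. Pan-neuronal markers fell with age as well, 7 of 8 in KO and 6 of 8 in WT, where 1 rose, and summed to 353 to 363 CPM in KO and 355 to 359 CPM in WT libraries at 18 months, against 492 to 525 CPM in KO and 818 to 857 CPM in WT libraries at 6 months. Of 10 excitatory neuron markers 9 fell and 1 rose with age in KO, and 8 fell in WT. The part of neurons in the filament count was not tested. *Nes*, the nestin gene, averaged 16.7 CPM in KO and 12.7 CPM in WT at 18 months, against 32.2 CPM in KO and 27.8 CPM in WT at 6 months. *Plec*, which encodes the linker plectin, averaged 53.6 CPM in KO and 48.7 CPM in WT at 18 months, against 131 CPM in KO and 205 CPM in WT at 6 months. *Synm*, the synemin gene, went the other way and rose with age in WT (log2 1.46, adjusted p = 2.06e-15), with 146 CPM in KO and 218 CPM in WT at 18 months, against 161 CPM in KO and 79.4 CPM in WT at 6 months. Radial glia and stem cell genes had 5 of 11 higher and none lower in KO at 18 months (median log2 0.25), and none higher and 7 lower at 6 months (median -0.64).

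At the endfeet, *Aqp4* is held by the dystrophin complex. Of 10 listed partners, 7 were higher and none lower in KO at 18 months (median log2 0.53), against 3 higher and 7 lower at 6 months (median -0.22). Of all tested genes 14.7% were called higher and 17.4% lower at 18 months, and 19.2% and 19.6% at 6 months. *Mlc1* had log2 fold changes of KO over WT of 1.10 at 18 months and -0.95 at 6 months, in the direction of *Aqp4*. *Dag1* followed with 0.50 and -0.52, *Dmd* with 0.66 and -0.32, *Dtna* with 0.55 and -0.19 and *Utrn* with 0.52 and -0.23. *Sntb1*, a syntrophin gene, was higher in KO at both ages (1.00 and 0.56). *Kcnj10*, the potassium channel gene, was higher in KO at 6 months (0.50) and had 0.07 at 18 months, which did not pass the threshold. *Hepacam* had -0.09 and 0.25 and *Agrn* -0.05 and -0.20, each passing the threshold at 6 months and not at 18 months.

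Of 23 family relatives of the members 19 were tested. In KO at 18 months 4 relatives were higher and 7 lower (median log2 -0.20), where 14.7% of all tested genes were called higher and 17.4% lower. At 6 months 5 were higher and 8 lower (median -0.17), against 19.2% and 19.6%. *Aldoa*, the widely expressed aldolase, moved against *Aldoc*: it averaged 304 CPM in KO and 490 CPM in WT at 18 months, against 426 CPM in KO and 359 CPM in WT at 6 months. Its log2 fold change of KO over WT was -0.69 at 18 months (adjusted p = 1.16e-09) and 0.25 at 6 months (adjusted p = 0.00117). *Aldh1l2*, the mitochondrial form of *Aldh1l1*, had 0.03 and -0.04, and *Fam107b* had -0.16 and 0.21, with no difference past the threshold.

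Receptors and synthetases split by gene. *S1pr5*, a receptor gene of oligodendrocytes, averaged 151 CPM in KO and 232 CPM in WT at 18 months, against 184 CPM in KO and 68.9 CPM in WT at 6 months, the opposite of *S1pr1*. *S1pr3* was higher in KO at both ages, by 1.10 at 18 months and 0.69 at 6 months on the log2 scale. Among the acyl-CoA synthetases, *Acsl6* (1.13 and -0.86) and *Acsl3* (0.79 and -0.54) moved with *Acsbg1*, and *Acsl1* (-0.47 and 0.82) moved against it. *Aqp9* had 1.00 and -1.02 beside *Aqp4*, at a mean of 7.98 CPM in KO and 3.96 CPM in WT at 18 months. *S100a16* averaged 118 CPM in KO and 185 CPM in WT at 18 months, against 137 CPM in KO and 103 CPM in WT at 6 months, in the same order as *S100b*, while *S100a1* was lower in KO at both ages (-0.63 and -0.36). The heat map of families gives all of these values.

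**Figure D5:**
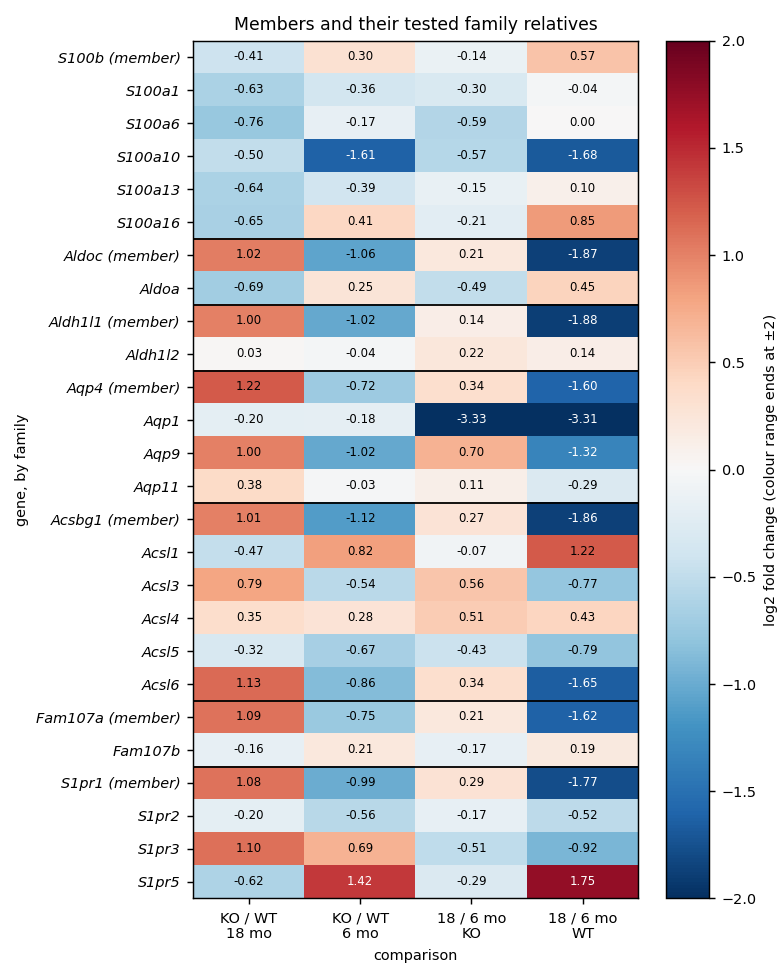
Log2 fold changes (colour and printed value) of 7 members and their 19 tested family relatives (rows, grouped by family) in 4 comparisons (columns); colour ends at ±2. *Aldoc* and *Aldoa* have opposite signs in each column (1.02 and -0.69 in KO against WT at 18 months), and *S100b* shares its signs with *S100a16* in each column.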

How the data were processed

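The authors deposited raw read counts per gene, 1 table per library, for 55573 Ensembl identifiers. Per the submitters' processing notes, the deposited counts were made on mm10 with STAR 2.5.2a as aligner and featureCounts 1.5.0-p1, after CASAVA 1.8.2. Which annotation, strand setting and treatment of multiply matching reads were used was not given in the sources used here. Symbols and positions were taken from GENCODE M21, which named 55480 of the identifiers.

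Groups were taken from the sample titles. All 8 libraries were fitted in 1 model of 4 groups with edgeR 4.0.16 (R 4.3.3) by its quasi-likelihood test, after TMM scaling and a low-count filter (filterByExpr, minimum 10). Benjamini-Hochberg adjustment ran over the 18205 genes tested, with a threshold of 0.05, and contrasts gave each comparison. The common coefficient of variation in edgeR, here between libraries and not between animals, was 0.0539, with 4 residual and 19.1 prior degrees of freedom. Likeness was Pearson's r of log2(CPM + 0.1) over genes with a mean of at least 20 CPM.

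Libraries of a group differed by more than sampling noise (chi-square per gene 2.71 to 5.4), so none was counted as a copy. Counts of 100 to 8725 reads limit precision, and reads carry counting error beside the spread between libraries.

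The members and the 18 gene lists were chosen with earlier results of these data known. Named genes are the members, up to 3 of the most alike genes, their family relatives, up to 4 genes of a longer list by smallest p, and any gene of a list of 10 or fewer. Alternatives were DESeq2 1.42.0, RLE scaling, library totals, no filter on low counts, and leaving out the mitochondrial genes and the gene Gm26917. Further alternatives were fitting only the groups compared, a replicate block, leaving out each library, and both scalings to astrocyte markers. A few of the genes taken by this rule are left out of the text. The method was tested on simulated data.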

Additional observations from a re-analysis of the deposited data

Results flagged for a closer look

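The difference of KO against WT differed between 18 and 6 months, by the test of the interaction in the model of 4 groups, for all 9 members. On the log2 scale (18 months minus 6 months) the values were 2.10 for *Gfap*, 0.66 for *Vim*, -0.71 for *S100b*, 2.02 for *Aldh1l1* and 2.08 for *Aldoc*. They were 1.94 for *Aqp4*, 2.14 for *Acsbg1*, 1.83 for *Fam107a* and 2.06 for *S1pr1*. The edgeR adjusted p was highest for *Vim* (9.75e-05).

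Of 19 tested family relatives, 8 also had such a difference, 4 in each direction, where 18.4% of all tested genes had a positive and 20.7% a negative one, so that this count is near the background. It was positive for *Aqp9* (2.02, edgeR adjusted p = 1.88e-05), *Acsl3* (1.33, adjusted p = 4.87e-12), *Acsl6* (1.99, adjusted p = 1.77e-15) and *S1pr3* (0.41, adjusted p = 0.0455). It was negative for *S100a16* (-1.06, adjusted p = 3.72e-09), *Aldoa* (-0.94, adjusted p = 8.55e-10), *Acsl1* (-1.30, adjusted p = 3.29e-11) and *S1pr5* (-2.04, adjusted p = 5.64e-14). Relative to the summed astrocyte markers, the interaction of *Vim* changed sign to -0.59, and relative to their geometric mean it was -1.07.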

How the results depend on the processing

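Leaving out 1 library at a time gave the same direction and call for the members in 357 of 360 values. The exceptions lay in the change with age in KO: *Aldoc* without KO 6 months replicate 1 (0.18, edgeR adjusted p = 0.0596) and without KO 18 months replicate 2 (0.16, adjusted p = 0.0514), and *Acsbg1* without KO 6 months replicate 1 (0.21, adjusted p = 0.0604). Members that rose with age in KO then numbered 3 to 5; the other member counts did not move. Genes called numbered 3737 to 6355 for KO against WT at 18 months (lowest without WT 18 months replicate 2), 5153 to 6991 at 6 months, 3255 to 6285 for age in KO (lowest without KO 6 months replicate 2, and 3540 without KO 18 months replicate 1), 9338 to 10735 for age in WT and 5957 to 6871 for the interaction, against 5844, 7067, 5775, 10748 and 7126 with all libraries.

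Other settings gave the same call in 303 of 306 values. With library totals the change of *Gfap* with age in KO was 0.03, and *Aldh1l1* rose with age in KO (0.24, adjusted p = 0.0164). DESeq2 called 3736 genes for age in KO. With the replicate number as a block, *Aldh1l1* rose with age in KO (0.15, adjusted p = 0.0386), and 6322 genes were called for KO against WT at 18 months and 7421 at 6 months. The numbers do not pair the samples by any label, and deviations of same-numbered libraries correlated at -0.0206 to 0.315.

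Scaling to the summed astrocyte markers called 12217 genes at 18 months, 11238 at 6 months and 13085 for the interaction; to their geometric mean, 13948, 12598 and 14824. Members higher in KO at 6 months numbered 2 under either scale, and with the geometric mean 1 was higher and 2 lower at 18 months. For age in KO 0 rose and 3 fell, and 2 interactions were negative, under either scale. *Vim* reversed to -0.17 and -0.47 at 18 months, 0.42 and 0.60 at 6 months, and -0.59 and -1.07 for the interaction (sum, then geometric mean). For age in KO *Aldh1l1* reversed to -0.09 and -0.10, and *Aldoc* and *Fam107a* each to -0.02 and -0.03. *Aqp4* at 6 months reversed to 0.03 with the geometric mean. By construction these scales express change relative to the markers.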
